A study of Homo sapiens with 4 samples.

Results

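The 40 genes described here encode the enzymes that remove reactive oxygen species, the enzymes that make, recycle and use glutathione, and the KEAP1 and NRF2 proteins that set the level of many of them. They were taken by gene symbol from a list that names them by function, drawn up with earlier results of these data known, and all 40 were found among the 60671 genes of the table. RNA selected for poly(A) tails was sequenced from 4 libraries of H9, a long-used line of human embryonic stem cells, and each gene's level is given as TPM, a share of the transcripts in the library that is corrected for transcript length. The control group of 2 libraries is labelled only as control H9; in the study's text they are mock control cells, which received the CRISPR/Cas9 plasmid without a guide. The other group of 2 libraries, called KO+OE here, is labelled as CFIm25 KO with overexpression of 3Flag-CFIm25. In the study's text the edited cells were a clone with small N-terminal deletions in CFIm25 and a reduced protein level, and the tagged protein was put back from a lentivirus under an EF1 promoter. All cells were grown in mTeSR medium without treatment. Edited cells that lack the tagged protein were not analysed here, so the comparison asks whether these genes differed between re-expressing and control cells. Nothing in the labels says that the libraries came from separate cultures, so the p-values and intervals below rest on the spread between these libraries, which may be technical.

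Superoxide is converted to hydrogen peroxide by superoxide dismutases, and the peroxide is then removed by catalase, glutathione peroxidases and peroxiredoxins. Most peroxiredoxins are re-reduced by thioredoxin and most glutathione peroxidases by glutathione, and both systems draw on NADPH through their reductases. Under oxidative or electrophilic stress KEAP1 releases the transcription factor NRF2, the product of NFE2L2, which binds the antioxidant response element in the promoters of genes such as NQO1, GCLM and TXNRD1.

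The core of that element was searched for in promoters, because it is the regulatory sequence these genes are known for. The motif TGACNNNGC was looked for on both strands in RefSeq promoter windows of 300 bases on GRCh38.p14, which hold 250 bases before and 50 after a start site. Windows were held for 32 of the 40 genes, 9 of which had more than 1, and a match in any window of a gene counted. None was held for SOD1, PRDX1, PRDX6, TXN2, GSS, GSR, HMOX1 and GLRX3. The motif was found for 8 of the 32 genes (25.0%), GCLM, GPX2, GSTA4, GSTM1, GSTO1, GSTP1, KEAP1 and TXNRD1, against 16.1% of the 27058 genes with a window. Some of the sites are printed because the levels of these genes are described in detail below. They lie at chr1:93909448-93909472 (GCLM, plus strand), chr11:67583738-67583762 (GSTP1, plus strand), chr12:104215672-104215696 (TXNRD1, plus strand), chr10:104254658-104254682 (GSTO1, plus strand) and chr19:10502786-10502810 (KEAP1, plus strand), and the capitals mark the motif.
GCLM: gaagacaaTGACTAAGCagaaatcg
GSTP1: cggcgccgTGACTCAGCactggggc
TXNRD1: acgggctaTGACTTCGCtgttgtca
GSTO1: cggagggaTGACTGAGCatttataa
KEAP1: ggtcaccaTGACTAAGCagagccgg
The printed GSTO1 and KEAP1 sites lie inside the RefSeq spans of these genes, before a start site within the span. A match is a description of the letters in the window and does not show that NRF2 binds there. The 8 genes with the motif spanned 0.625 to 3237 TPM, from GPX2 to GSTP1, and the 24 without it 0.273 to 804 TPM, from CAT to GPX4. NQO1, named above as a gene with this element, was among the 24, and bases outside the windows were not searched.

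The cells carried the RNA of embryonic stem cells. All 7 pluripotency markers were expressed, between 15.85 TPM and 2212 TPM in any library, the highest being POU5F1. Of the markers of other cells, the 3 of neuroectoderm were at or under 0.32 TPM, and 3 of 4 of mesoderm and 4 of 5 of endoderm had means under 1 TPM, the exceptions being TBX6 at up to 2.64 TPM and GATA6 at up to 8.39 TPM. Of 6 fibroblast markers, THY1, COL1A1 and COL1A2 were present at up to 1352, 55.6 and 14.5 TPM, while COL3A1, DCN and LUM had means under 1 TPM. Of 3 blood markers, HBB and PTPRC were listed at 0 in every library and HBA1, at 3.35 and 4.80 TPM (control) and 0.70 and 1.56 TPM (KO+OE), was lower in KO+OE without passing the adjusted threshold (limma adjusted p = 0.912); its part in the results was not tested. NUDT21, the gene of CFIm25, was at 161 and 152 TPM (control) and 162 and 157 TPM (KO+OE) (limma adjusted p = 0.980), a level in which endogenous and lentiviral RNA cannot be told apart.

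The antioxidant genes were among the more abundant RNAs of these cells, yet they spanned a wide range. Together they held 0.873% and 0.865% of the transcripts (control) and 0.859% and 0.865% (KO+OE). With levels averaged over the 4 libraries, 12 of the genes had at least 100 TPM, 17 lay from 10 to 100 TPM, 9 from 1 to 10 TPM, and 2 under 1 TPM. The 38 with a mean of at least 1 TPM had a median of 43.7 TPM, against 7.77 TPM for all 12319 genes at that level, and the same 12 genes were in the top 10% of all genes. In the order of mean levels, 23 of the 39 pairs of neighbours had overlapping ranges over the 4 libraries, so their order is not resolved.

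**Figure D1:**
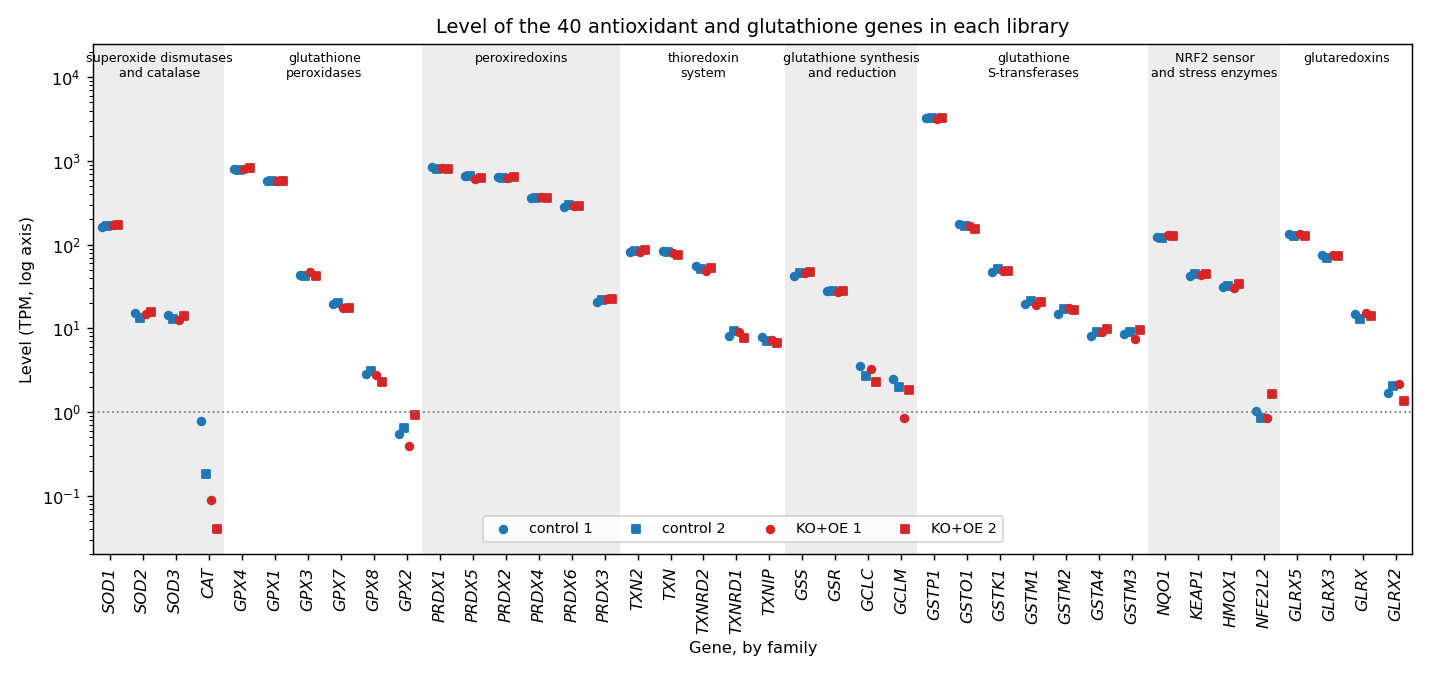
Level of each of the 40 genes in each library, in TPM on a log axis, with genes grouped by family and ordered by mean level within it; blue points are control and red points KO+OE libraries, with circles for replicate 1 and squares for replicate 2, and the dotted line marks 1 TPM. The 4 libraries of a gene lie close together above about 10 TPM, and scatter visibly only for the rarest genes, such as CAT, GCLM and NFE2L2.

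The most abundant RNA of the set was that of GSTP1, which encodes the pi-class glutathione S-transferase, an enzyme that joins glutathione to electrophiles. GSTP1 (ENSG00000084207), on chromosome 11 from 67583812 to 67586653 on GRCh38.p14, was at 3246 and 3266 TPM (control) and 3184 and 3252 TPM (KO+OE), with overlapping groups. It ranked 59 among all genes tested and made up 92.3% of the RNA of the 7 transferases. The other transferases were far lower, from 166 TPM for GSTO1, the omega-class enzyme, through 48.4 TPM for GSTK1 and 20.1 TPM for GSTM1, to 8.65 TPM for GSTM3 (means of 4 libraries). GSTM1 and GSTM2, mu-class genes that neighbour each other on chromosome 1, have closely similar sequences. Their RefSeq spans do not overlap, but exons of some of their annotated transcripts do. The ratio of GSTM1 to GSTM2 was 1.09 to 1.32 over the libraries, but reads could be divided between these genes, so their separate levels are uncertain.

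Peroxiredoxins, thiol enzymes that reduce hydrogen peroxide, were the next most abundant family. PRDX1, a cytosolic member, was at 854 and 809 TPM (control) and 834 and 800 TPM (KO+OE). PRDX2, also cytosolic, was at 645 and 624 TPM (control) and 634 and 652 TPM (KO+OE). The 6 genes summed to 2836 and 2770 TPM in control and to 2768 and 2744 TPM in KO+OE. PRDX4 of the endoplasmic reticulum was at 359 to 368 TPM and PRDX6, the 1-cysteine member, at 285 to 300.2 TPM. PRDX3, a mitochondrial member, was the exception in this family with 20.9 to 22.5 TPM, so that PRDX1 was 35.9 to 40.9 times higher in level. PRDX5, described below and also found in mitochondria, was 27.4 to 32.0 times higher in level than PRDX3.

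Among the glutathione peroxidases, the selenium enzymes GPX4 and GPX1 dominated. GPX4, which reduces lipid peroxides in membranes, was at 807 and 786 TPM (control) and 795 and 829 TPM (KO+OE). GPX1, the cytosolic enzyme, was at 578 and 569 TPM (control) and 573 and 578 TPM (KO+OE). The groups overlapped for both genes, and GPX1 stood at 0.697 to 0.724 of the GPX4 level. GPX3, the secreted enzyme, was at 41.9 to 47.7 TPM. GPX7 and GPX8, the members of the endoplasmic reticulum, were at 17.65 to 20.3 TPM and 2.27 to 3.06 TPM, and GPX2, known from the gut, at 0.39 to 0.92 TPM. Of 32 genes that the table names as copies of the 40 (such as SOD1P1), 27 were listed at 0 in all libraries and GPX1P1, at 24.0 to 30.1 TPM, alone had a mean of at least 1 TPM. GPX1 was 19.2 to 23.7 times higher in level than this copy.

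Catalase RNA was nearly absent by comparison. CAT was listed at 0.78 and 0.18 TPM (control) and 0.09 and 0.04 TPM (KO+OE), the lowest mean of the 40. Both KO+OE values lay under both control values, but the gap between the control libraries was wider than the gap between the groups. CAT was under the 1 TPM filter and was not tested with the rest. With no filter limma gave it an adjusted p = 0.873.

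Of the superoxide dismutases, SOD1, the cytosolic copper and zinc enzyme, was at 160 and 167 TPM (control) and 169.9 and 171 TPM (KO+OE). SOD3, the extracellular enzyme, was at 12.4 to 14.3 TPM. SOD2, the mitochondrial manganese enzyme, was at 13.5 to 15.7 TPM, so SOD1 was 10.4 to 12.4 times higher in level. The identifier given for SOD2 (ENSG00000112096) is not in GENCODE release 44, where the gene's canonical transcript has 14167 bases. A TPM value depends on the length used, which is not given in the sources used here, so the level of SOD2 set against other genes is uncertain. The same limit holds for every ratio between genes given here, such as TXNRD2 to TXNRD1, GSS to GCLC and KEAP1 to NFE2L2. Over all annotated transcripts, its exons also overlap those of ACAT2 (153 TPM) on the opposite strand. Counting by strand is not stated, so reads of the 2 genes cannot be told apart there.

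The thioredoxin pair was even between compartments and its reductases were not. TXN, the cytosolic thioredoxin, was at 84.8 and 80.7 TPM (control) and 79.1 and 75.7 TPM (KO+OE). TXN2, the mitochondrial form, was at 81.6 to 85.2 TPM, and the ratio of TXN to TXN2 was 0.888 to 1.04. Their reductases are selenium enzymes that use NADPH. TXNRD2, the mitochondrial one, was at 55.8 and 51.2 TPM (control) and 47.9 and 52.5 TPM (KO+OE), while TXNRD1, the cytosolic one, was at 8.20 and 9.29 TPM (control) and 9.14 and 7.63 TPM (KO+OE). TXNRD2 was thus 5.24 to 6.88 times higher in level than TXNRD1. TXNIP, which binds and inhibits thioredoxin, was at 6.68 to 7.81 TPM.

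Glutathione is made in 2 steps, and RNA for the first was scarce. GCLC, the catalytic subunit of glutamate-cysteine ligase, was at 3.56 and 2.69 TPM (control) and 3.29 and 2.31 TPM (KO+OE). GCLM, its modifier subunit (ENSG00000023909, chromosome 1 from 93885199 to 93909430), was at 2.45 and 1.97 TPM (control) and 0.86 and 1.81 TPM (KO+OE). GSS, the synthetase of the second step, was at 42.3 and 45.9 TPM (control) and 46.2 and 46.6 TPM (KO+OE), which is 11.9 to 20.2 times the GCLC level. GSR, the reductase that returns oxidized glutathione, was at 27.2 to 28.2 TPM.

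The sensor of the pathway was more abundant in RNA than the factor it holds. KEAP1 was at 42.4 and 44.75 TPM (control) and 43.5 and 44.1 TPM (KO+OE). NFE2L2, the gene of NRF2, was at 1.02 and 0.84 TPM (control) and 0.86 and 1.66 TPM (KO+OE), and KEAP1 was 26.6 to 53.3 times higher in level. NFE2L2 lies near the filter, and over all annotated transcripts its exons overlap HNRNPA3 (66.9 TPM) and AGPS (1.22 TPM) on the opposite strand. NQO1, a quinone reductase that is a known NRF2 target, was at 122 and 121.5 TPM (control) and 132 and 126 TPM (KO+OE). HMOX1, the inducible heme oxygenase, was at 31.2 and 31.85 TPM (control) and 30.7 and 34.2 TPM (KO+OE). Glutaredoxins, which reduce protein disulfides with glutathione or carry iron-sulfur clusters, ran from 125 to 135 TPM for the mitochondrial GLRX5 and 69.0 to 75.9 TPM for GLRX3 to 12.9 to 15.35 TPM for GLRX and 1.37 to 2.18 TPM for GLRX2.

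These levels were higher for transcripts rich in G and C and for short ones. The Spearman correlation across the 40 genes, which share the same libraries and are not independent replicates, was 0.459 between mean TPM and the G and C content of the canonical transcript and -0.537 between mean TPM and its length. Over 12147 of the genes tested the values were 0.275 and -0.192. The 16 members under 45% G and C had a median of 11.7 TPM, the 12 from 45 to 55% 23.9 TPM, and the 12 above 55% 67.7 TPM. The low genes NFE2L2, GCLM, GLRX2, GPX8 and GCLC and also TXNRD1 and PRDX3 were in the first class, and TXNRD2, KEAP1, GSS and GSTP1 in the last. The lowest genes, CAT and GPX2, were in the middle class. The first class also held PRDX6, SOD1 and NQO1 at 291, 167 and 125 TPM. TXN (36.8% G and C, 80.1 TPM) and SOD3 (68.4%, 13.4 TPM) also departed from the trend. The parts of base composition and of transcript length in the order of levels were not tested.

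**Figure D2:**
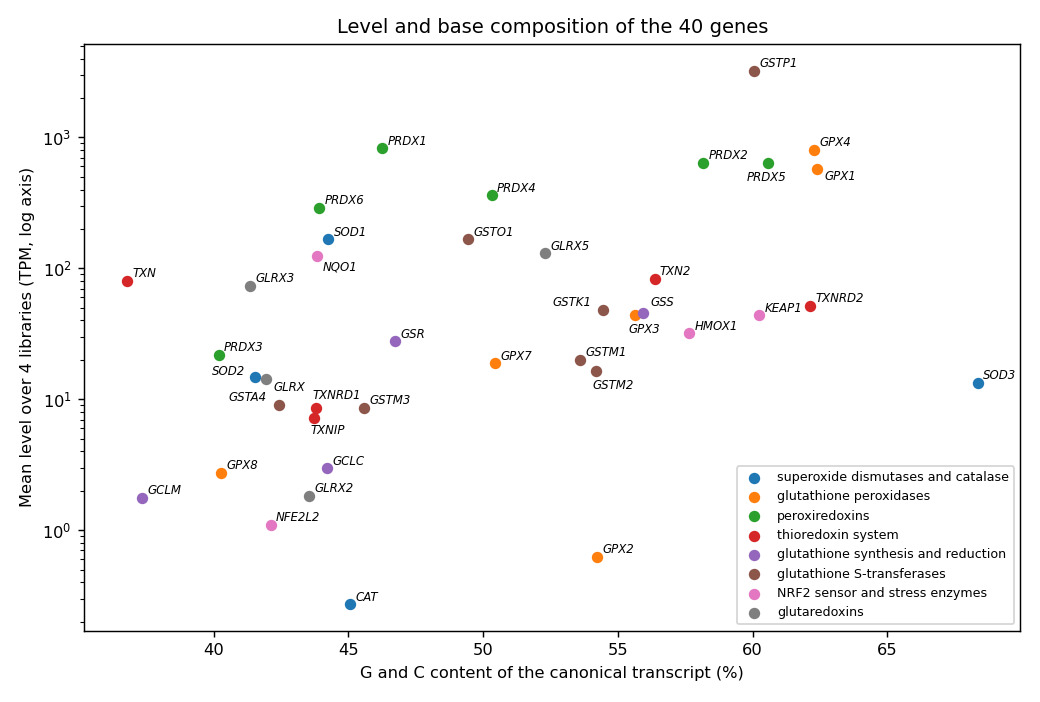
Mean level over the 4 libraries (TPM, log axis) against the G and C content of the canonical transcript (percent) for the 40 genes, coloured by family. Genes rich in G and C tend to stand higher (Spearman 0.459), with GSTP1 at the top and CAT at the bottom.

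The KO+OE and control groups were then compared. None of the 38 genes tested passed an adjusted p of 0.05 with limma over all 12319 genes, where 0.00812% of genes did. At an unadjusted p under 0.05, 1 of 38 passed (2.63%), against 5.33% of all genes (2.26% higher and 3.06% lower in KO+OE). Log2 fold changes on the TPM + 1 scale, KO+OE over control, ran from -0.49 for GCLM to 0.21 for NFE2L2, 19 above and 19 below 0. Their median was -0.0045, against -0.012 over all genes. It became 0.0087 with median-ratio rescaling and 0.010 with quantile normalization, so its sign depends on the scaling. RNAs of the mitochondrial genome held 20.7% and 20.8% of the transcripts (control) and 21.3% and 21.8% (KO+OE). The part of this difference in the fold changes was not tested. In bulk RNA, fewer cells with an RNA and less of it per cell cannot be told apart.

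The intervals, which rest on the spread between these libraries, bounded the differences closely for the abundant members. Of the 29 members at 10 TPM or more, where adding 1 to the TPM matters little, all had a 95% interval of the log2 fold change that did not reach 2-fold, as did 98.9% of the 5528 genes at that level. For 22 of the 29 it did not reach 1.2-fold (75.9%, against 58.2%). Over all 12319 genes tested this share was 26.5%, so it depends on level. Levels within the class at 10 TPM or more were not matched, so the shares do not show that the members were steadier. All 6 peroxiredoxins were among the 22. For GSTP1 the interval was -0.074 to 0.040, for GPX4 -0.055 to 0.11, for GPX1 -0.064 to 0.072 and for PRDX1 -0.12 to 0.076. For NFE2L2 it was -0.42 to 0.83 and for GLRX2 -0.61 to 0.49, so smaller changes in these rare RNAs were not detectable, and near 1 TPM an interval on the TPM + 1 scale is no bound on the fold change of TPM itself. The median absolute log2 difference between replicates over the 38 members was 0.078 in control and 0.064 in KO+OE, against 0.112 and 0.110 for all genes tested. Above about 50 TPM it was 0.054 and 0.046 for members, against 0.044 and 0.049 for all genes.

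**Figure D3:**
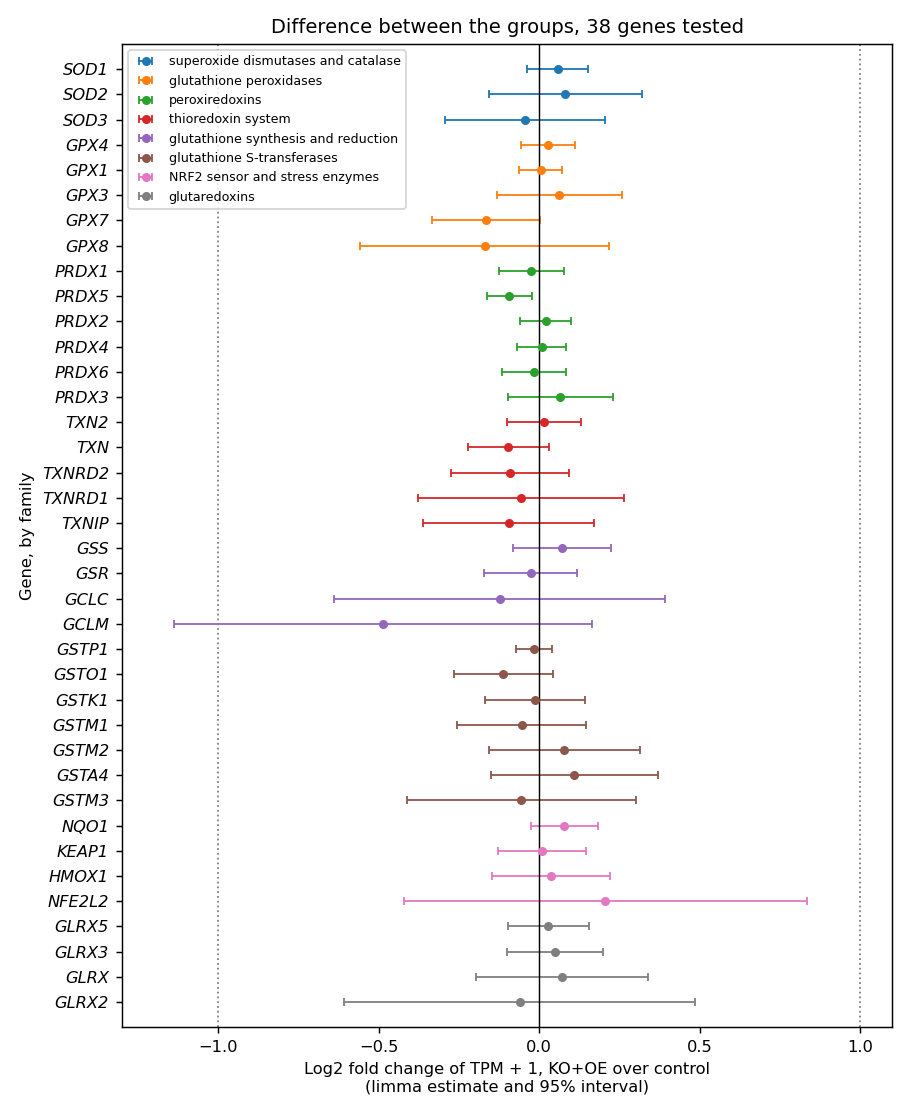
Log2 fold change of TPM + 1, KO+OE over control, for the 38 genes tested, as limma's estimate (point) with its 95% interval (bar), coloured by family; dotted lines mark -1 and 1. The interval crosses 0 for every gene but PRDX5, and it is widest for the rarest genes, whose change in TPM this scale understates.

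PRDX5 was the 1 member with an unadjusted p under 0.05. It encodes a peroxiredoxin of mitochondria, peroxisomes and cytosol, and lies on chromosome 11 from 64318121 to 64321811 (ENSG00000126432). It was listed at 669 and 655 TPM (control) and 617 and 624 TPM (KO+OE). Both KO+OE libraries were below both control libraries, by a log2 fold change of -0.093 (95% interval -0.16 to -0.024). Its unadjusted p from limma was 0.0181 and its adjusted p = 0.928, so PRDX5 is not called. The unadjusted p was above 0.05 when control replicate 1 or KO+OE replicate 1 was left out, and with a prior that ignores the mean level.

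Groups did not overlap for 11 of the 38 genes. KO+OE was higher for 4 (10.5%, against 14.5% of all genes), SOD1, PRDX3, GSS and NQO1, and lower for 7 (18.4%, against 19.6%), GPX7, GPX8, PRDX5, TXN, GCLM, GSR and GSTO1. Both shares were near those of all genes. Among the genes with higher KO+OE values, NQO1 had a log2 fold change of 0.078 (adjusted p = 0.932 from limma), SOD1 0.057, PRDX3 0.065 and GSS 0.072. Among those with lower values, GPX7 was at 19.65 and 20.3 TPM (control) and 17.7 and 17.65 TPM (KO+OE). Its log2 fold change was -0.17, with an unadjusted p of 0.0510 and an adjusted p = 0.931 from limma. GSTO1 was at 177 and 168 TPM (control) and 168 and 152 TPM (KO+OE), with a log2 fold change of -0.11 and a limma adjusted p = 0.932. TXN had a log2 fold change of -0.096 and an adjusted p = 0.932 from limma.

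GCLM had the largest fold change among the 38 on the TPM + 1 scale, and its size depended on 1 library and on the pseudocount. In KO+OE it was 0.86 TPM in replicate 1 and 1.81 TPM in replicate 2, the second close to the lower control library. The log2 fold change was -0.49 (SE 0.25, limma adjusted p = 0.932), and became -0.78 when KO+OE replicate 2 was left out and -0.19 when replicate 1 was. With a pseudocount of 0.1 it was -0.76 and with 5 it was -0.19. For NFE2L2 the fold change of 0.21 likewise became -0.052 when replicate 2 was left out and 0.46 when replicate 1 was, and it was 0.34 and 0.075 with pseudocounts of 0.1 and 5.

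**Figure D4:**
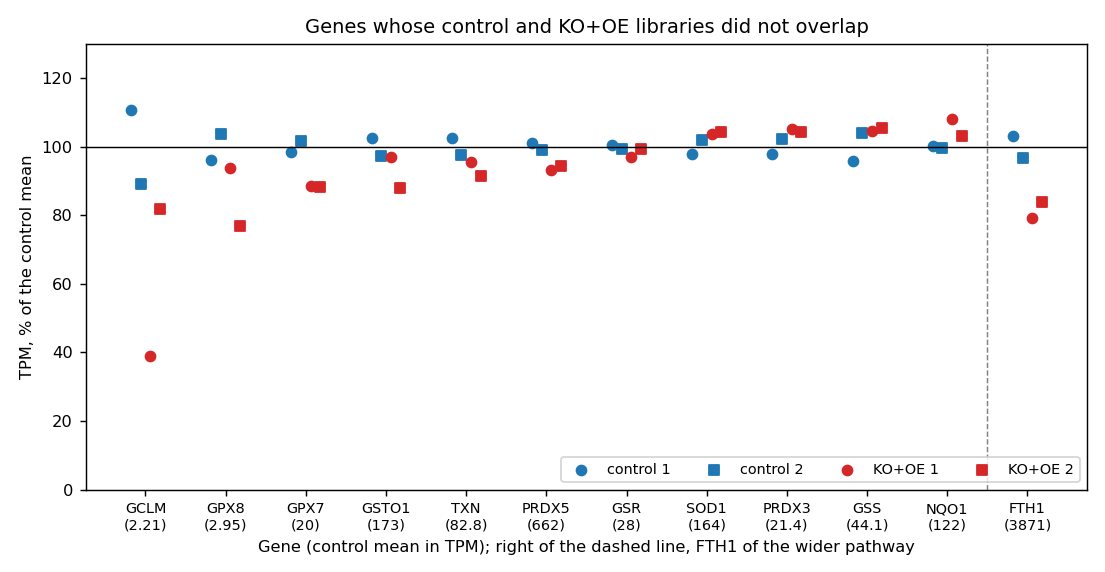
TPM of each library as percent of the control mean for the 11 members whose groups did not overlap and, right of the dashed line, for FTH1; the control mean in TPM stands under each gene name. Apart from GCLM and GPX8, the KO+OE values of the 11 members lie between 88.0% and 108% of the control mean. Those of FTH1, the pathway gene with the smallest unadjusted p from limma, are 79.3% and 83.8%.

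By family, the summed levels moved little. The superoxide dismutases and catalase summed to 191 and 194 TPM in control and 197 and 201 TPM in KO+OE, and the 6 glutathione peroxidases to 1451 and 1422 TPM and to 1436 and 1470 TPM. The thioredoxin system summed to 238 and 233 TPM in control and 226 and 228 TPM in KO+OE. The log2 ratio of group means was between -0.055 and 0.059 for the 8 families, the lowest for the thioredoxin system and the highest for NFE2L2, KEAP1, NQO1 and HMOX1 together. These 4 genes summed to 197 and 199 TPM in control and to 207 and 206 TPM in KO+OE. Each had a fold change above 0, between 0.0087 for KEAP1 and 0.21 for NFE2L2, but none had an unadjusted p under 0.05, and those of KEAP1, HMOX1 and NFE2L2 were below 0 without KO+OE replicate 2, that of KEAP1 also without control replicate 1. Sums were not tested. Of the genes with a promoter window, the 7 tested members with the motif had a median log2 fold change of -0.054 and the 23 without it 0.0042. Since NQO1 was among the 23, this split describes the windows and does not separate NRF2 targets from other genes. The difference was not tested.

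Other genes of the pathway were compared through a list of 73, of which 62 had a mean of at least 1 TPM. None passed an adjusted p of 0.05 with limma, and 3 (4.84%) had an unadjusted p under 0.05, FTH1, SEPHS1 and CCS, all lower in KO+OE, against 5.33% of all genes in either direction. The median log2 fold change of the 62 was -0.012, the same as that of all genes, with 23 above and 39 below 0. With median-ratio rescaling the median was 0.00079. Groups did not overlap for 5 of the 62 with KO+OE higher (8.06%, against 14.5% of all genes). For 10 they did not overlap with KO+OE lower (16.1%, against 19.6%).

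FTH1, the heavy chain of the iron store ferritin and a known NRF2 target, had the smallest unadjusted p of the pathway. It was listed at 3997 and 3745 TPM (control) and 3071 and 3245 TPM (KO+OE). Both KO+OE libraries were below both control libraries, by a log2 fold change of -0.29 (95% interval -0.41 to -0.18). The unadjusted p from limma was 0.00108, and the adjusted p = 0.556 misses the threshold. The fold change ran from -0.34 to -0.25 when single libraries were left out. With a prior that ignores the mean level, limma's unadjusted p for FTH1 was 0.0219 and its adjusted p = 0.852. FTL, the light chain of the same store, was at 6409 and 6555 TPM (control) and 6389 and 6657 TPM (KO+OE), with overlapping groups and a log2 fold change of 0.0088. FTH1 has 24 copies named in the table, and they summed to 1.23 to 2.86 TPM in any library.

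Fold changes below 0 outnumbered those above in some subgroups, as they did over all genes tested (6710 of 12319 below 0). They were below 0 for 9 of 10 genes of cystine import and glutathione turnover and 7 of 9 of NADPH supply. None of these had an unadjusted p under 0.05. The other subgroups had 9 of 15 (partners and targets of NRF2 and KEAP1), 7 of 13 (thiol repair), 4 of 7 (other transferases) and 3 of 8 (selenocysteine insertion). SEPHS1, a selenophosphate synthetase homologue, was at 252 and 254 TPM (control) and 239 and 236 TPM (KO+OE) (log2 fold change -0.092, limma adjusted p = 0.928). CCS, the chaperone that loads copper into SOD1, was at 67.0 and 65.2 TPM (control) and 61.45 and 59.5 TPM (KO+OE) (log2 fold change -0.13, limma adjusted p = 0.928). SELENOW, a small selenoprotein, was at 429 to 444 TPM. For cystine import and glutathione turnover, SLC3A2 (266 to 286 TPM), a subunit of the cystine transporter, and CHAC1 (59.3 to 65.1 TPM), which degrades glutathione, had log2 fold changes of -0.0054 and -0.025, and SLC7A11, the transporter subunit itself, was listed at 0.47 to 0.53 TPM. For the supply of NADPH, the pentose phosphate enzymes TKT (2310 to 2355 TPM) and TALDO1 (390 to 403 TPM) had log2 fold changes of -0.0074 and -0.018. MGST3 (64.5 to 76.1 TPM) and GSTZ1 (71.7 to 78.5 TPM) of the other transferases were at 0.14 and -0.0033, and PARK7 (317 to 337 TPM) and TXNDC17 (168 to 178 TPM), a thioredoxin relative, at 0.022 and 0.021.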

How the data were processed

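RNA of 4 H9 libraries was selected with oligo(dT) beads and sequenced in paired ends. The authors deposited 1 table with a column per library and no unit in its header. The values were read as TPM, since each deposited column holds decimals, sums to between 986853 and 987078 and shows no step common to all genes. The submitters' processing notes name hg38, HISAT2, featureCounts, Subread and DESeq2, without roles or versions, and the annotation is not given in the sources used here. Further columns with sample values numbered 0. TPM holds no counts, so depth is unknown and precision comes from the spread between 2 libraries a group; an exact permutation test of 2 against 2 cannot go below p = 0.333.

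The groups were compared with limma 3.58.1 in R 4.3.3 (lmFit, eBayes with a mean-dependent prior, two-sided) on log2(TPM + 1), a scale that understates changes of low genes, over the 12319 genes averaging 1 TPM or more. P-values were adjusted by Benjamini-Hochberg over all of them. The step was tested on simulated data. Alternatives were pseudocounts of 0.1 and 5, no filter and a filter at a mean of 5 TPM, median-ratio rescaling, quantile normalization, a prior without the mean trend, a block for replicate number, and the omission of single libraries, where the lone library of a group is assumed to vary like the other group.

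The members, the pathway list and the markers were chosen with earlier results of these data known. All 40 members are named, and of each subgroup of the pathway list the 2 most abundant genes and any with an unadjusted p under 0.05; SLC7A11 and the 1.2-fold bound on intervals were added after the values were seen. Gene positions are RefSeq's on GRCh38.p14. G and C content and length come from the canonical transcripts of GENCODE release 44 on GRCh37, matched by identifier and for SOD2 by symbol. Exon overlap was taken over all annotated transcripts of both genes in the same release. Other steps used pandas 2.3.3 and scipy 1.17.1 under Python 3.11.15, and matplotlib 3.10.9 for plots.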

Additional observations from a re-analysis of the deposited data

How the results depend on the processing

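No member and no gene of the pathway list passed an adjusted p of 0.05 under any of the 12 alternatives. The member count at an unadjusted p under 0.05, 1 in the comparison reported, was 2 without a filter (GPX7 and PRDX5) and 0 without the mean-dependent prior, and ran from 0 to 2 when single libraries were left out. The pathway count, 3, was 1 without the prior and ran from 1 to 4 with single libraries left out. Replicate numbers did not pair the libraries (their deviations from the group means correlated at -0.049 within a number); with the replicate block 2 members (GSTO1 and PRDX5) and 6 pathway genes had an unadjusted p under 0.05. The median log2 fold change of the members was 0.0074 with the filter at 5 TPM, 0.0087 with median-ratio rescaling and 0.010 with quantile normalization, and ran from -0.0059 to 0.0011 with single libraries left out; the causes were not tested. Signs turned with quantile normalization for PRDX6 (0.0070), GSTP1 (0.011), TALDO1 (0.00068) and GSTZ1 (0.015), and with median-ratio rescaling for SLC3A2 (0.0079), TKT (0.0059) and GSTZ1 (0.0098). The alternatives for the named pathway genes were added after the data were seen. Leaving out a library turned the sign for 23 of the 38 members and 9 of the 13 named pathway genes. The ranges were SOD2 (-0.010 to 0.17), SOD3 (-0.12 to 0.034), GPX1 (-0.0068 to 0.015), GPX3 (-0.028 to 0.15), GPX4 (-0.0017 to 0.058), PRDX1 (-0.063 to 0.015), PRDX2 (-0.0039 to 0.043) and PRDX4 (-0.011 to 0.026). They were also PRDX6 (-0.054 to 0.023), TXN2 (-0.011 to 0.040), TXNRD1 (-0.17 to 0.060), GCLC (-0.31 to 0.065), GSTK1 (-0.076 to 0.049), GSTM1 (-0.11 to 0.0022), GSTM2 (-0.013 to 0.17) and GSTM3 (-0.22 to 0.11). Further members gave NFE2L2 (-0.052 to 0.46), KEAP1 (-0.030 to 0.047), HMOX1 (-0.039 to 0.11), GLRX (-0.033 to 0.18), GLRX2 (-0.27 to 0.15), GLRX3 (-0.014 to 0.11) and GLRX5 (-0.013 to 0.071). The pathway genes gave SLC3A2 (-0.058 to 0.047), CHAC1 (-0.091 to 0.041), TKT (-0.020 to 0.0056), TALDO1 (-0.041 to 0.0042), FTL (-0.021 to 0.038), TXNDC17 (-0.022 to 0.063), PARK7 (-0.016 to 0.060), GSTZ1 (-0.067 to 0.061) and SELENOW (-0.014 to 0.038).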
